A study of Mus with 96 samples.

Results

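Bile acid synthesis, transport and control were followed through 10 genes in mouse liver. The members were the rows of the count table whose gene symbol was *Cyp7a1*, *Cyp8b1*, *Cyp27a1*, *Cyp7b1*, *Baat*, *Slc10a1*, *Abcb11*, *Nr1h4*, *Nr0b2*, or *Nr5a2*. All 10 were found among the 55487 genes of the table, and all 10 were among the 15548 genes that reached 100 counts summed across 96 libraries and were tested. Livers came from 96 C57BL/6J mice of both sexes, kept under 12 hours of light and 12 hours of darkness. The mice were 8 to 10 weeks old before acclimation and the diet period. Hep-Bmal1KO mice carried floxed *Bmal1* alleles and a Cre recombinase driven by the albumin promoter, which acts in hepatocytes. Hep-Bmal1WT mice were littermates with the same floxed alleles and no Cre. Mice of each genotype ate normal chow (NC) or cdHFD, a high-fat diet deficient in choline, for 2 weeks. In the paper's recipe, cdHFD also contained cholesterol and held less protein and carbohydrate than NC. The parts of the diet cannot be told apart here. For each genotype and diet, 4 mice were sampled at each zeitgeber time (ZT, hours after lights on) of 2, 6, 10, 14, 18, and 22. Whole-liver RNA was counted by BRB-seq, a method that sequences the 3′ end of barcoded mRNAs, and levels are given as CPM, the reads of a gene relative to the TMM-scaled library total, and errors of means are SDs across mice.

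Bile acids are made from cholesterol in hepatocytes. In the classic route, CYP7A1 performs the rate-limiting hydroxylation and CYP8B1 directs the product toward cholic acid. The alternative route begins with the mitochondrial CYP27A1 and continues through the oxysterol hydroxylase CYP7B1, and BAAT then joins bile acids to taurine or glycine. SLC10A1 (NTCP) takes bile acids up from the blood, and ABCB11 (BSEP) exports them into bile. NR1H4 (FXR) is the nuclear receptor that senses bile acids. Its target NR0B2 (SHP) represses *Cyp7a1* and *Cyp8b1*, whereas NR5A2 (LRH-1) is an activator of both. *Cyp7a1* is known in liver for its daily rhythm.

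In the RefSeq annotation of GRCm38.p6, the enzymes of the classic route are *Cyp7a1* (ENSMUSG00000028240, chromosome 4, 6265612 to 6275632) and *Cyp8b1* (ENSMUSG00000050445, chromosome 9, 121914356 to 121916305). Those of the alternative route are *Cyp27a1* (ENSMUSG00000026170, chromosome 1, 74713148 to 74737897) and *Cyp7b1* (ENSMUSG00000039519, chromosome 3, 18071944 to 18243890), and the conjugating enzyme is *Baat* (ENSMUSG00000039653, chromosome 4, 49489416 to 49507915). The transporters are *Slc10a1* (ENSMUSG00000021135, chromosome 12, 80953185 to 80968705) and *Abcb11* (ENSMUSG00000027048, chromosome 2, 69238282 to 69342616). The nuclear receptors are *Nr1h4* (ENSMUSG00000047638, chromosome 10, 89454234 to 89533645), *Nr0b2* (ENSMUSG00000037583, chromosome 4, 133553376 to 133556686), and *Nr5a2* (ENSMUSG00000026398, chromosome 1, 136842562 to 136960448).

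The depth of the libraries ran from 1861740 to 9718615 reads assigned to genes. The lowest count of a member in any library was 17, for *Cyp8b1*. Reads from the 3′ end of *Arntl* (the gene symbol of *Bmal1*) lie outside the deleted part and do not check the deletion. At ZT22 on NC, *Arntl* was at 17.5 ± 4.05 CPM in Hep-Bmal1WT and 8.43 ± 1.04 CPM in Hep-Bmal1KO (SD, n = 4 each). At ZT10 on NC the order was the opposite, at 0.748 ± 0.463 CPM in Hep-Bmal1WT and 5.77 ± 3.81 CPM in Hep-Bmal1KO. In 7 of 96 libraries, both the clock genes and the other genotype-dependent genes, none of them a member, lay nearer the other genotype label than their own. These were 2 of 24 Hep-Bmal1WT and 2 of 24 Hep-Bmal1KO libraries on NC, and 2 of 24 Hep-Bmal1WT and 1 of 24 Hep-Bmal1KO libraries on cdHFD. Results are given with all 96 libraries and, where the call changed, without these 7. The labels name each library by a letter and a number. All libraries that share a number were of the same genotype and diet, so anything that goes with this number cannot be told apart from the groups, and the labels do not say what it stands for. In the order of the deposited columns, all libraries of ZT2, ZT10, and ZT18 come before those of ZT6, ZT14, and ZT22. Within each diet, the mouse numbers in the labels rise with ZT. Anything that goes with this order or with the mouse numbers cannot be told apart from ZT.

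The first question was what cdHFD did to these genes. With cdHFD, 9 of 10 members fell in Hep-Bmal1WT and 10 of 10 fell in Hep-Bmal1KO (edgeR quasi-likelihood test, adjusted p under 0.05). Over all genes tested, 27.3% were called lower in Hep-Bmal1WT and 29.6% in Hep-Bmal1KO. The median log2 difference of the 10 members was −0.87 in Hep-Bmal1WT and −1.18 in Hep-Bmal1KO, against 0.01 and 0.02 over all genes. The largest differences were those of the synthetic enzymes *Cyp8b1* and *Cyp7b1* and the uptake transporter *Slc10a1*, and the smallest were those of the nuclear receptors *Nr0b2* and *Nr5a2*.

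**Figure D1:**
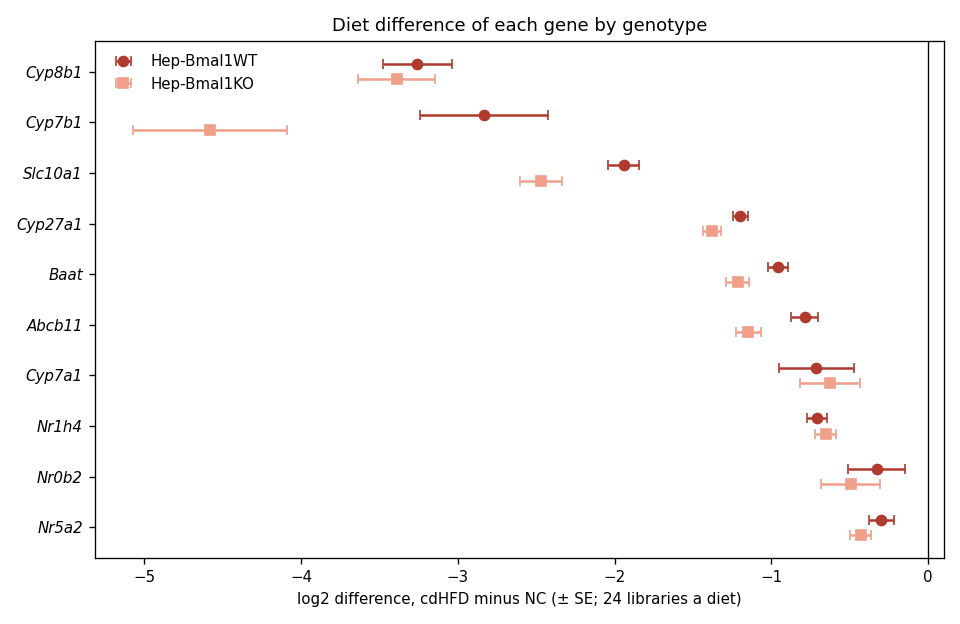
Log2 difference between cdHFD and NC (x axis, cdHFD minus NC) for each of the 10 genes (y axis) in Hep-Bmal1WT (circles) and Hep-Bmal1KO (squares), with 24 libraries per diet and genotype and bars for the SE. Every point lies left of 0, with *Cyp8b1* at −3.26 and −3.39 and *Nr0b2* at −0.33 and −0.49.

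In the classic route, *Cyp8b1* ranged from 65.3 to 471 CPM (median 259) in the 24 Hep-Bmal1WT mice on NC and from 2.20 to 57.2 CPM (median 26.02) on cdHFD. In Hep-Bmal1KO the range was 86.6 to 586 CPM (median 279) on NC and 4.63 to 86.1 CPM (median 21.9) on cdHFD. The diets did not overlap in either genotype. The log2 difference was −3.26 ± 0.22 (SE, adjusted p = 2.81e-18) in Hep-Bmal1WT, a 9.57-fold lower level, and −3.39 ± 0.25 (adjusted p = 3.8e-17) in Hep-Bmal1KO, a 10.48-fold lower level.

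*Cyp7a1*, which precedes *Cyp8b1* in the same route, moved less. It ranged from 21.8 to 246 CPM (median 82.96) on NC and from 24.02 to 177 CPM (median 50.9) on cdHFD in Hep-Bmal1WT, and the diets overlapped over most of these ranges. In Hep-Bmal1KO the ranges were 29.9 to 254 CPM (median 102) and 27.5 to 127 CPM (median 56.5). *Cyp7a1* fell by 0.71 ± 0.24 on the log2 scale in Hep-Bmal1WT (adjusted p = 0.00936) and by 0.63 ± 0.19 in Hep-Bmal1KO (adjusted p = 0.00367). In females alone the values were −0.47 ± 0.34 (adjusted p = 0.29) and −0.33 ± 0.22 (adjusted p = 0.22), which did not pass the test, and in males alone −0.93 ± 0.26 (adjusted p = 0.00396) and −0.99 ± 0.20 (adjusted p = 0.000126).

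In the alternative route, *Cyp27a1* ranged from 193 to 439 CPM (median 348) on NC and from 91.4 to 181 CPM (median 156) on cdHFD in Hep-Bmal1WT, with no overlap. Its ranges in Hep-Bmal1KO were 211 to 467 CPM (median 372) and 62.9 to 186 CPM (median 141), also without overlap. The log2 difference was −1.20 ± 0.05 (adjusted p = 1.12e-26) and −1.38 ± 0.06 (adjusted p = 1.23e-26), respectively. *Cyp7b1*, the next enzyme of the route, spanned 14.6 to 639 CPM (median 44.6) on NC and 6.71 to 53.7 CPM (median 15.8) on cdHFD in Hep-Bmal1WT. In Hep-Bmal1KO it spanned 22.1 to 1477 CPM (median 106) and 4.73 to 44.6 CPM (median 8.85). The wide NC ranges hold both sexes, which are described separately below, and the diets overlapped in both genotypes. *Cyp7b1* fell by 2.83 ± 0.41 on the log2 scale in Hep-Bmal1WT (adjusted p = 4.37e-08) and by 4.58 ± 0.49 in Hep-Bmal1KO (adjusted p = 1.39e-11).

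The conjugating enzyme *Baat* ranged from 179.7 to 330.4 CPM (median 228) on NC and from 103 to 172 CPM (median 115) on cdHFD in Hep-Bmal1WT. In Hep-Bmal1KO it ranged from 176 to 387 CPM (median 237) and from 67.4 to 148 CPM (median 110.4). No mouse on cdHFD reached the lowest NC mouse of its genotype. The log2 difference was −0.96 ± 0.06 (adjusted p = 9.07e-19) and −1.21 ± 0.07 (adjusted p = 6.45e-20).

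Of the transporters, *Slc10a1* ranged from 323 to 835 CPM (median 557) on NC and from 91.2 to 255 CPM (median 143) on cdHFD in Hep-Bmal1WT. In Hep-Bmal1KO it ranged from 407 to 705 CPM (median 568) and from 28.5 to 200.2 CPM (median 106). The uptake transporter thus separated the diets fully in both genotypes. It was 3.85-fold lower in Hep-Bmal1WT (log2 difference −1.94 ± 0.10, adjusted p = 2.1e-22) and 5.53-fold lower in Hep-Bmal1KO (−2.47 ± 0.13, adjusted p = 6.37e-22). The exporter *Abcb11* ranged from 169.6 to 473 CPM (median 317) and from 117 to 227 CPM (median 178) in Hep-Bmal1WT, where the diets overlapped. In Hep-Bmal1KO its ranges of 239.9 to 488 CPM (median 352) and 102 to 224 CPM (median 154) did not. *Abcb11* fell by 0.79 ± 0.09 (adjusted p = 6.15e-11) and by 1.15 ± 0.08 (adjusted p = 6.21e-18) on the log2 scale.

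Taken over all 24 mice of each diet, 4 of 10 members did not overlap in Hep-Bmal1WT and 5 of 10 in Hep-Bmal1KO, against 1.54% and 2.55% of all genes tested in that direction. At the single ZTs, with 4 mice against 4, *Cyp8b1*, *Cyp27a1*, *Baat*, and *Slc10a1* were lower without overlap at 6 of 6 ZTs in both genotypes, as were 3% of all genes in Hep-Bmal1WT and 4.66% in Hep-Bmal1KO. In Hep-Bmal1KO this held for *Abcb11* as well.

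Of the nuclear receptors, *Nr1h4* ranged from 53.3 to 130.1 CPM (median 75.1) on NC and from 37.1 to 62.5 CPM (median 46.8) on cdHFD in Hep-Bmal1WT, and fell by 0.71 ± 0.06 on the log2 scale (adjusted p = 4.54e-14). In Hep-Bmal1KO, from 47.9 to 122 CPM (median 63.7) and 33.3 to 57.7 CPM (median 42.1), it fell by 0.65 ± 0.07 (adjusted p = 7.4e-12). The diets overlapped in both genotypes. *Nr5a2* ranged from 20.7 to 45.7 CPM (median 32.6) and from 15.3 to 35.04 CPM (median 26.1) in Hep-Bmal1WT, with a log2 difference of −0.30 ± 0.08 (adjusted p = 0.00168). In Hep-Bmal1KO it ranged from 21.9 to 41.3 CPM (median 29.6) and from 17.04 to 27.96 CPM (median 22.3), with a log2 difference of −0.43 ± 0.07 (adjusted p = 1.7e-07). *Nr0b2*, the repressor, was the member that did not pass the test in Hep-Bmal1WT, where it ranged from 18.8 to 129 CPM (median 42.6) on NC and from 5.28 to 76.1 CPM (median 37.9) on cdHFD (−0.33 ± 0.18, adjusted p = 0.122). In Hep-Bmal1KO it fell by 0.49 ± 0.19 (adjusted p = 0.0214), from a median of 36.5 CPM to 27.1 CPM.

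Other genes of bile acid metabolism were counted as lists. Of 40 such genes tested, 7 rose and 24 fell with cdHFD in Hep-Bmal1WT, and 8 rose and 23 fell in Hep-Bmal1KO. Of all genes tested, 28.4% rose and 27.3% fell in Hep-Bmal1WT, and 32.4% rose and 29.6% fell in Hep-Bmal1KO. The synthesis and conjugation list had 2 higher and 10 lower of 14 in both genotypes. The transport list had 4 higher and 6 lower of 13 in Hep-Bmal1WT, and 5 higher and 6 lower in Hep-Bmal1KO. The control list had 1 higher of 13 in both, with 8 lower in Hep-Bmal1WT and 7 lower in Hep-Bmal1KO. The control gene that rose, *Vdr*, was barely detected, at means of 0.024 CPM on NC and 0.32 CPM on cdHFD in Hep-Bmal1WT. In Hep-Bmal1KO its means were 0.074 and 0.24 CPM. *Ch25h*, which rose in the synthesis list in both genotypes, had means of 0.014 and 0.35 CPM, and of 0.058 and 0.57 CPM. *Slc27a5*, which activates bile acids with coenzyme A before BAAT acts, fell by 2.11 ± 0.06 and 2.26 ± 0.08 on the log2 scale (adjusted p = 2.51e-33 and 8.37e-30). *Hnf4a*, a hepatocyte transcription factor, fell by 0.81 ± 0.06 in Hep-Bmal1WT (adjusted p = 8.2e-17) and by 0.77 ± 0.06 in Hep-Bmal1KO (adjusted p = 2.11e-17). The reductase *Akr1d1* fell by 1.24 ± 0.11 in Hep-Bmal1WT (adjusted p = 4.04e-14). Its log2 difference in Hep-Bmal1KO was −1.58 ± 0.15 (adjusted p = 2.84e-13). The sinusoidal transporter *Slco1a1* fell by 5.78 ± 0.41 in Hep-Bmal1KO (adjusted p = 1.7e-17). Its log2 difference in Hep-Bmal1WT was −4.69 ± 0.47 (adjusted p = 2.28e-12). The test of whether the diet difference depended on genotype did not pass for either gene (adjusted p = 0.342 and 0.346).

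Markers of the cells in whole liver moved with diet as well. All 5 hepatocyte markers were lower on cdHFD in both genotypes, and *Alb* fell by 1.13 ± 0.09 on the log2 scale in Hep-Bmal1WT and by 0.58 ± 0.13 in Hep-Bmal1KO. The log2 differences of the list ran from −0.90 (*Apoa1*) to −1.33 (*Serpina1a*) in Hep-Bmal1WT and from −0.58 (*Alb*) to −1.52 (*Serpina1a*) in Hep-Bmal1KO. These are differences of the size found for *Cyp27a1* and *Baat*, and smaller than those of *Cyp8b1*, *Cyp7b1*, and *Slc10a1*. In Hep-Bmal1WT, *Abcb11* (−0.79), *Cyp7a1* (−0.71), *Nr1h4* (−0.71), *Nr0b2* (−0.33), and *Nr5a2* (−0.30) had smaller differences than every hepatocyte marker. In Hep-Bmal1KO this held for *Nr0b2* (−0.49) and *Nr5a2* (−0.43), and *Abcb11*, *Cyp7a1*, and *Nr1h4* lay within the range of the list. All 6 macrophage markers were higher on cdHFD, with a median summed level of 180.6 CPM (94.7 to 227) on NC and 449 CPM (273 to 665) on cdHFD in Hep-Bmal1WT, and of 166 CPM (78.4 to 253) and 394 CPM (307 to 559) in Hep-Bmal1KO. Stellate cell markers were higher for 4 of 5 in Hep-Bmal1WT and 5 of 5 in Hep-Bmal1KO, and markers of lymphocytes and neutrophils for 3 and 2 of 4. The ileal genes *Fabp6* and *Fgf15* had 0 counts in all 96 libraries, and of endothelial markers 2 of 4 were higher and 1 lower in both genotypes. The third ileal gene, *Slc10a2*, which cholangiocytes also express, had a median of 12.9 CPM on NC and 13.9 CPM on cdHFD in Hep-Bmal1WT, where it did not pass the test, and was higher on cdHFD in Hep-Bmal1KO (5.25 and 7.57 CPM, log2 difference 0.64 ± 0.25, adjusted p = 0.0227). Cholangiocyte markers were higher on cdHFD for 2 of 5 in Hep-Bmal1WT and 3 of 5 in Hep-Bmal1KO, with median summed levels of 51.1 CPM on NC and 104 CPM on cdHFD in Hep-Bmal1WT, and of 89.9 and 225 CPM in Hep-Bmal1KO. In whole liver, fewer hepatocytes and less RNA per hepatocyte cannot be told apart, and the part of these markers in the diet differences was not tested.

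The next question was how loss of *Bmal1* in hepatocytes bore on the same genes within each diet. On NC, the exporter *Abcb11* was higher and the receptor *Nr1h4* lower in Hep-Bmal1KO, so that 2 of 10 members passed the test, against 12.5% of all genes. On cdHFD, the uptake transporter *Slc10a1*, the repressor *Nr0b2*, the conjugating enzyme *Baat*, and the activator *Nr5a2* were lower in Hep-Bmal1KO, so that 4 of 10 passed, against 9.67% of all genes in either direction and 4.92% lower. The log2 differences of the members that passed ran from −0.69 (*Nr0b2*) to 0.23 (*Abcb11*).

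On NC, *Abcb11* had a mean of 307 ± 83.6 CPM in Hep-Bmal1WT and 353 ± 62.9 CPM in Hep-Bmal1KO (SD, n = 24), with overlapping mice at every ZT. The log2 difference was 0.23 ± 0.06 (adjusted p = 0.00702). The means were closest at ZT2, with 402 ± 54.3 and 384 ± 27.6 CPM (n = 4), and furthest apart at ZT18, with 203 ± 39.2 and 282 ± 32.03 CPM. *Nr1h4* averaged 80.01 ± 22.1 CPM in Hep-Bmal1WT and 68.5 ± 17.1 CPM in Hep-Bmal1KO, and fell by 0.21 ± 0.07 on the log2 scale (adjusted p = 0.0409). Its 4 Hep-Bmal1WT mice at ZT10 were at 119, 117, 125, and 130.1 CPM, and the 4 Hep-Bmal1KO mice at 78.3, 83.7, 122, and 82.8 CPM. The Hep-Bmal1KO mouse at 122 CPM was among the 7 libraries nearer the other label, and the other 3 lay below all 4 Hep-Bmal1WT mice. *Nr0b2*, a target of NR1H4, averaged 51.8 ± 27.5 and 36.3 ± 18.7 CPM and lay just outside the threshold (log2 difference −0.53 ± 0.19, adjusted p = 0.0513).

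On cdHFD, *Slc10a1* averaged 152 ± 42.6 CPM in Hep-Bmal1WT and 105 ± 41.8 CPM in Hep-Bmal1KO (log2 difference −0.55 ± 0.14, adjusted p = 0.00581). *Nr0b2* averaged 40.4 ± 15.9 and 25.9 ± 12.6 CPM (−0.69 ± 0.18, adjusted p = 0.00671). At ZT18 its 4 Hep-Bmal1WT mice were at 35.1, 29.8, 31.3, and 38.5 CPM and its 4 Hep-Bmal1KO mice at 5.83, 7.96, 15.1, and 21.3 CPM. These groups did not overlap, as was the case for 6.52% of all genes at this ZT. *Baat* averaged 124 ± 18.7 and 103 ± 19.2 CPM (−0.26 ± 0.07, adjusted p = 0.0106), and *Nr5a2* 25.5 ± 5.11 and 22.1 ± 3.04 CPM (−0.20 ± 0.07, adjusted p = 0.049). *Nr1h4* had a log2 difference of −0.15 ± 0.05 (adjusted p = 0.0516) and did not pass. The synthetic enzymes *Cyp7a1* (0.19 ± 0.18), *Cyp8b1* (0.26 ± 0.25), *Cyp27a1* (−0.09 ± 0.05), and *Cyp7b1* (−0.56 ± 0.22) did not pass the test either. The lowest adjusted p among them was 0.0987, for *Cyp7b1*, followed by 0.247 for *Cyp27a1*.

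Without the 7 libraries nearer the other label, 4 of 10 members passed on NC. *Cyp8b1* was then higher in Hep-Bmal1KO (0.55 ± 0.16, adjusted p = 0.0105) and *Nr0b2* lower (−0.54 ± 0.20, adjusted p = 0.0495), beside *Abcb11* and *Nr1h4*. On cdHFD 6 of 10 then passed, with *Cyp7b1* (−0.64 ± 0.21, adjusted p = 0.0297) and *Nr1h4* (−0.17 ± 0.05, adjusted p = 0.0307) lower as well. With sex as a covariate, 5 of 10 passed on NC, among them *Cyp7b1* (0.92 ± 0.18, adjusted p = 0.000138). Leaving out the mice of 1 replicate number at a time gave 0 to 2 members on NC and 1 to 3 on cdHFD. The share of all genes called under each of these settings is not given here. These counts are therefore not read as particular to the members.

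**Figure D2:**
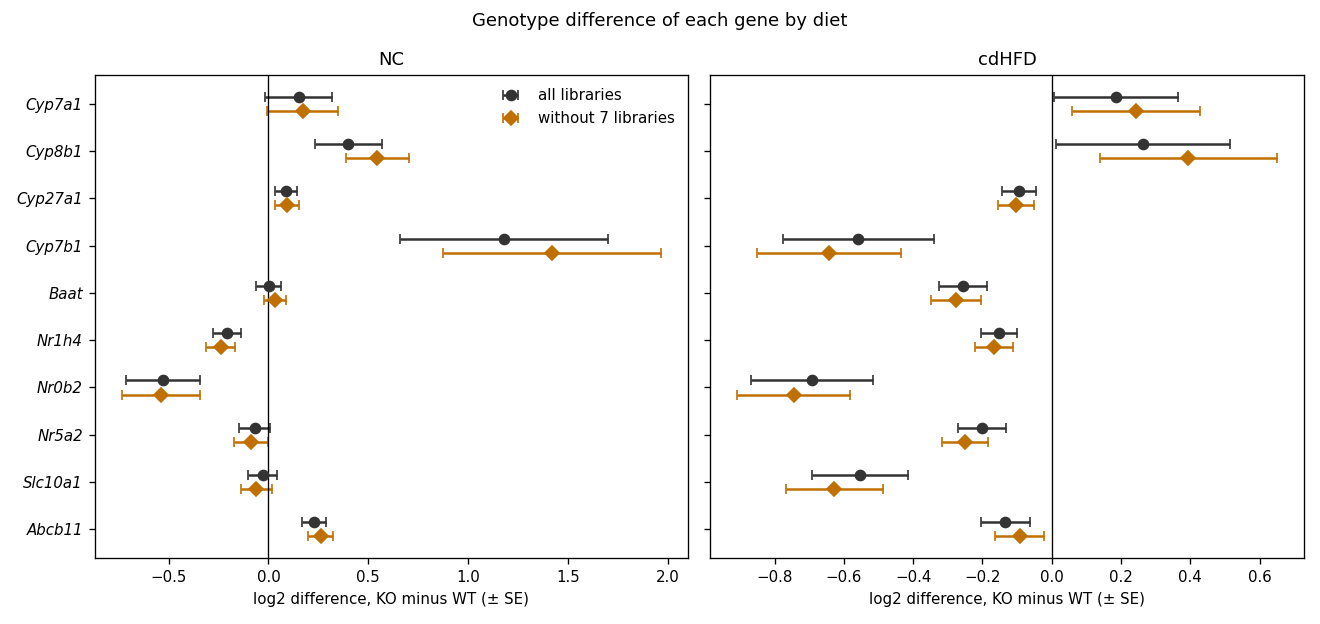
Log2 difference between Hep-Bmal1KO and Hep-Bmal1WT (x axis, KO minus WT) for each of the 10 genes (y axis) on NC (left) and cdHFD (right), with all libraries (circles) and without the 7 libraries nearer the other genotype label (diamonds) and bars for the SE. *Cyp7b1* lies at 1.18 on NC and −0.56 on cdHFD, and *Slc10a1* at −0.03 and −0.55.

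Among the 40 other genes of bile acid metabolism, 3 were higher and 10 lower in Hep-Bmal1KO on NC, and 0 were higher and 10 lower on cdHFD. Of all genes tested, 7.08% were higher and 5.45% lower on NC, and 4.75% higher and 4.92% lower on cdHFD. On NC, *Cyp2c70*, which makes muricholic acids in the mouse, was higher (log2 difference 0.62 ± 0.11, adjusted p = 4.89e-05), as was *Akr1c6* (0.33 ± 0.06, adjusted p = 0.00021). The peroxisomal enzyme *Hsd17b4*, which acts in side chain shortening, was lower (−0.37 ± 0.06, adjusted p = 7.3e-06). On cdHFD, *Hnf4a* (−0.25 ± 0.04, adjusted p = 5.81e-05), the canalicular transporter *Abcb1a* (−0.86 ± 0.17, adjusted p = 0.000367), and *Hsd17b4* (−0.22 ± 0.05, adjusted p = 0.00353) were lower. On NC, 1 of 5 hepatocyte markers was lower in Hep-Bmal1KO (*Alb*, −0.83 ± 0.15), and the other 4 ran from −0.08 (*Serpina1a*) to 0.17 (*Cps1*) and did not pass. On cdHFD, 2 of 5 were lower (*Alb* and *Serpina1a*, both −0.28 ± 0.06). Cholangiocyte markers were higher in Hep-Bmal1KO for 2 of 5 on NC and 3 of 5 on cdHFD. On cdHFD, 3 of 5 stellate cell markers and 2 of 4 markers of lymphocytes and neutrophils were also higher, and 1 of 6 macrophage markers was lower, whereas 0 markers of these 3 lists were called on NC. The part of these cells in the genotype differences was not tested.

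Whether the diet difference depended on genotype was tested over all 96 libraries. *Abcb11* passed, 1 of 10 members against 3.04% of all genes, and its fall with cdHFD was larger in Hep-Bmal1KO by 0.36 ± 0.09 on the log2 scale (adjusted p = 0.0149). *Abcb11* was thus higher in Hep-Bmal1KO on NC, whereas on cdHFD it had a log2 difference of −0.13 ± 0.07 (adjusted p = 0.256). *Slc10a1* (−0.52 ± 0.16, adjusted p = 0.0565) and *Cyp7b1* (−1.74 ± 0.59, adjusted p = 0.0896) did not pass. With sex as a covariate, both passed, at −0.57 ± 0.14 (adjusted p = 0.00776) and −1.51 ± 0.36 (adjusted p = 0.00578). Without the 7 libraries, *Abcb11*, *Slc10a1* (−0.57 ± 0.17, adjusted p = 0.0266), *Cyp7b1* (−2.06 ± 0.61, adjusted p = 0.0251), and *Baat* passed. Among the other genes of bile acid metabolism, 1 of 40 was higher and 2 lower in this test. The basolateral exporter *Abcc4* was higher (1.28 ± 0.27, adjusted p = 0.002), and *Cyp2c70* (−0.61 ± 0.13, adjusted p = 0.00256) and *Akr1c6* (−0.34 ± 0.10, adjusted p = 0.0423) were lower.

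Levels over the day were then compared. On NC, 4 of 10 members were rhythmic in Hep-Bmal1WT (p under 0.01 in at least 1 of 3 rhythm tests), against 21.6% of all genes, and 1 of 10 in Hep-Bmal1KO, against 10.7%. On cdHFD, 3 of 10 were rhythmic in Hep-Bmal1WT, against 18.2%, and 2 of 10 in Hep-Bmal1KO, against 9.81%. The synthetic enzymes *Cyp8b1* and *Cyp27a1*, were rhythmic in Hep-Bmal1WT on both diets, with fitted peaks late in the dark phase.

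**Figure D3:**
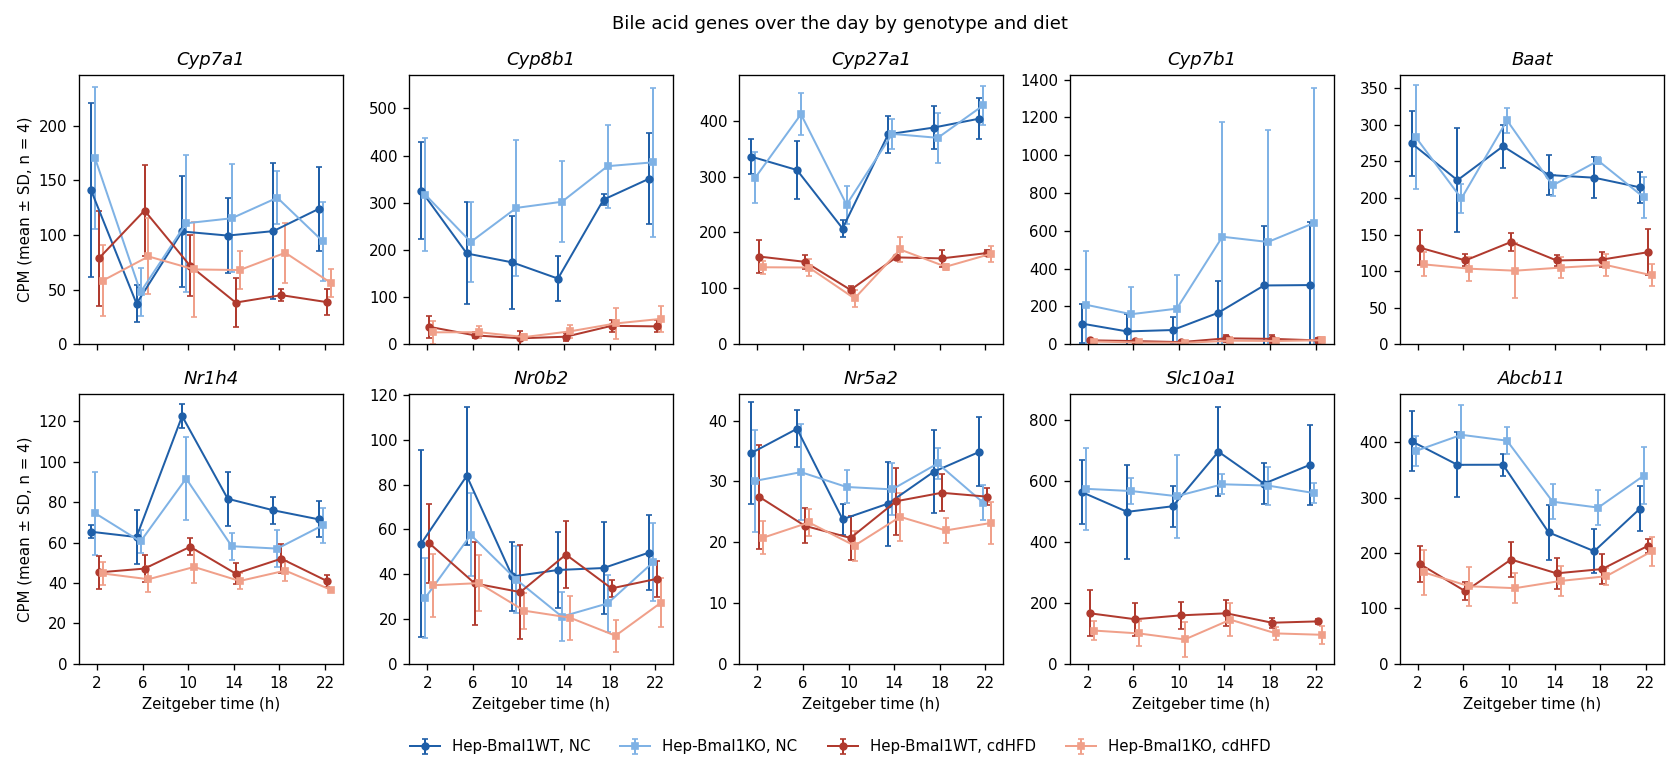
CPM (y axis, mean with the SD over 4 mice, bars cut at 0) of the 10 genes over zeitgeber time (x axis, hours) in Hep-Bmal1WT on NC (dark blue circles) and cdHFD (dark red circles) and Hep-Bmal1KO on NC (light blue squares) and cdHFD (light red squares). *Cyp8b1*, *Cyp27a1*, *Baat*, and *Slc10a1* lie lower on cdHFD at all 6 ZTs, whereas *Cyp7a1* at ZT6 in Hep-Bmal1WT lies at 37.2 CPM on NC and 122 CPM on cdHFD.

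*Cyp8b1* peaked at 22.5 ± 0.915 hours (fitted peak and SE) in Hep-Bmal1WT on NC, with a peak-to-trough fold of 2.81, and at 21.8 ± 0.997 hours on cdHFD, with a fold of 3.60 at a level more than 9-fold lower. Its means in Hep-Bmal1WT on NC ran from 139 ± 48.5 CPM at ZT14 to 351 ± 95.9 CPM at ZT22 (n = 4). In Hep-Bmal1KO on NC the fitted fold was 1.77, and the gene did not pass any of the 3 tests. *Cyp27a1* peaked at 20.5 ± 0.686 hours on NC and 21.6 ± 0.973 hours on cdHFD in Hep-Bmal1WT, with folds of 1.68 and 1.43. In all 4 groups its lowest mean was at ZT10, with 207 ± 15.6 CPM in Hep-Bmal1WT and 249.7 ± 34.2 CPM in Hep-Bmal1KO on NC, and 97.2 ± 6.93 and 81.9 ± 14.8 CPM on cdHFD. The ZT10 low was therefore present in Hep-Bmal1KO as well, where *Cyp27a1* was not called rhythmic.

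*Abcb11* was rhythmic in both genotypes on NC, with fitted peaks at 5.07 ± 0.589 hours in Hep-Bmal1WT and 5.58 ± 0.620 hours in Hep-Bmal1KO. The phase difference in the CircaCompare model was 0.52 ± 0.95 hours, which did not pass the test, and 13.7% of the genes rhythmic in both genotypes passed this test. Its log2 amplitude was 0.47 in Hep-Bmal1WT and 0.29 in Hep-Bmal1KO, lower by 0.19 ± 0.09 (unadjusted p = 0.039, adjusted p = 1). *Nr1h4* peaked at 12.2 ± 1.06 hours in Hep-Bmal1WT on NC, with all 4 mice at ZT10 above the highest mouse of any other ZT, and was not called rhythmic in the other 3 groups. In Hep-Bmal1KO on cdHFD, *Nr0b2* was called rhythmic, with a peak at 4.42 ± 1.03 hours and a fold of 2.39, and the amplitude difference from Hep-Bmal1WT was 0.42 ± 0.26 and did not pass the test, whereas it passed without the 7 libraries. *Abcb11* was called there by 1 of the 3 tests, and not without the 7 libraries, where *Cyp7b1* was called instead. *Cyp7b1* was then called in Hep-Bmal1WT on NC too.

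On cdHFD these profiles differed. In Hep-Bmal1WT, *Abcb11* had its highest mean at ZT22 (213 ± 13.05 CPM) and its lowest at ZT6 (131 ± 16.2 CPM), whereas on NC the highest was at ZT2 (402 ± 54.3 CPM) and the lowest at ZT18 (203 ± 39.2 CPM). In Hep-Bmal1KO the highest mean was at ZT6 on NC (413 ± 54.7 CPM) and at ZT22 on cdHFD (203 ± 26.1 CPM). The cosine and sine terms differed between diets for *Abcb11* in Hep-Bmal1WT (adjusted p = 0.00105) and in Hep-Bmal1KO (adjusted p = 0.0257), and for *Cyp7a1* in Hep-Bmal1WT (adjusted p = 0.023). That made 2 of 10 members in Hep-Bmal1WT, against 6.13% of all genes, and 1 of 10 in Hep-Bmal1KO, against 0.907%. Without the 7 libraries, *Abcb11* was called in both genotypes and *Cyp7a1* was not called. The *Abcb11* call in Hep-Bmal1KO was lost without any 1 of the 4 replicate numbers.

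*Cyp7a1* was called rhythmic in Hep-Bmal1WT on cdHFD and in none of the other 3 groups, with a fitted peak at 5.85 ± 0.942 hours and a peak-to-trough fold of 2.76. The 4 mice at ZT6 were at 84.98, 95.1, 177, and 132 CPM, and those at ZT18 were at 45.9, 40.6, 40.4, and 52.7 CPM. At ZT6 on NC the 4 Hep-Bmal1WT mice were at 60.0, 27.0, 21.8, and 39.8 CPM, so cdHFD was higher without overlap at this ZT, as it was in either direction for 27.7% of all genes. At ZT14, ZT18, and ZT22 *Cyp7a1* was lower on cdHFD without overlap, at times where 26.4%, 28.8%, and 27.3% of all genes did not overlap. In Hep-Bmal1KO on cdHFD, the ZT6 mice were at 51.8, 55.6, 87.1, and 127 CPM and the ZT18 mice at 103, 104, 82.4, and 45.5 CPM, with overlap between these times. The amplitude was 0.73 in Hep-Bmal1WT and 0.14 in Hep-Bmal1KO, lower by 0.59 ± 0.25 (unadjusted p = 0.0241, adjusted p = 1). The joint edgeR test of the cosine and sine terms gave an adjusted p of 0.292. In males alone the amplitude difference was 0.12, with the sign turned.

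**Figure D4:**
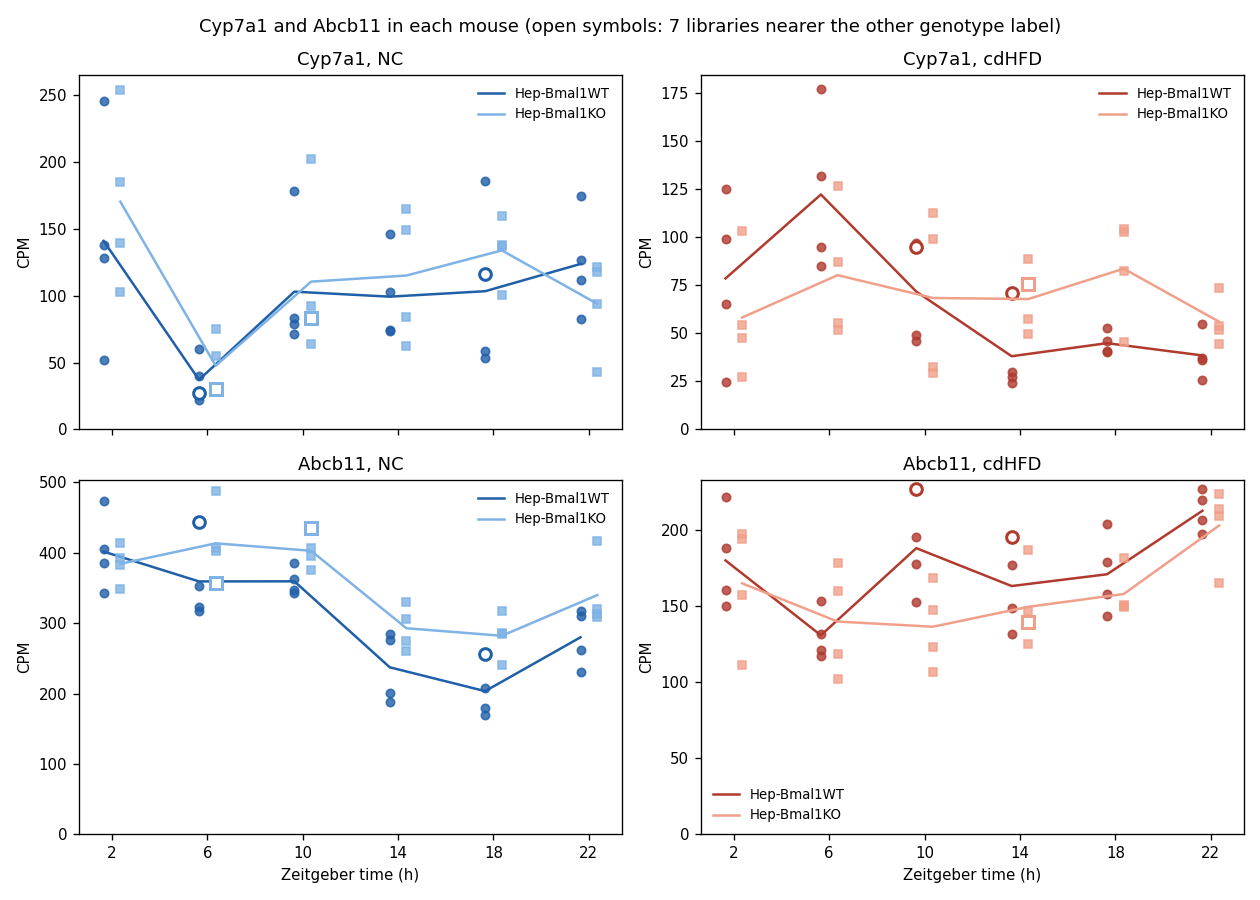
CPM (y axis) of *Cyp7a1* (top) and *Abcb11* (bottom) in each mouse over zeitgeber time (x axis, hours) on NC (left) and cdHFD (right), with Hep-Bmal1WT as circles, Hep-Bmal1KO as squares, lines through the means of 4 mice, and open symbols for the 7 libraries nearer the other genotype label. In Hep-Bmal1WT, *Cyp7a1* is lowest at ZT6 on NC (37.2 CPM) and highest at ZT6 on cdHFD (122 CPM), and *Abcb11* is lowest at ZT18 on NC (203 CPM) and at ZT6 on cdHFD (131 CPM).

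Genotype changed the joint rhythm terms of 0 of 10 members on NC and 0 of 10 on cdHFD by edgeR at an adjusted p under 0.05, against 0.386% and 0.431% of all genes. At an unadjusted p under 0.05, *Nr1h4* (adjusted p = 0.512) and *Nr5a2* (adjusted p = 0.599) would have passed on NC and *Cyp7a1* on cdHFD, and DESeq2 also called 0 in both diets. With no filter on counts, edgeR called 1 member on cdHFD. The amplitude differed at an unadjusted p under 0.05 for 2 of 10 members on NC (*Abcb11* and *Nr5a2*, both lower), against 4.12% of all genes, and for 1 of 10 on cdHFD (*Cyp7a1*, lower), against 2.93%. Without the 7 libraries the 2 members on NC were *Cyp8b1* and *Cyp27a1* in place of *Abcb11* and *Nr5a2*, and those on cdHFD were *Cyp7a1* and *Nr0b2*. Some clock genes had their highest mean at another ZT on cdHFD than on NC, too. In Hep-Bmal1WT the highest mean of *Nr1d1* was at ZT6 on NC (61.6 ± 33.99 CPM) and at ZT2 on cdHFD (58.001 ± 10.8 CPM), and that of *Dbp* at ZT10 (265 ± 52.9 CPM) and ZT6 (175 ± 17.05 CPM). *Per1* had its highest mean at ZT10 on both diets in both genotypes, and in Hep-Bmal1KO so did *Dbp* and *Nr1d2*. In Hep-Bmal1KO on NC at ZT10 the SDs exceeded the means, with *Dbp* at 118 ± 166 CPM and *Nr1d2* at 25.9 ± 30.8 CPM. A mouse of this group at ZT10 and another at ZT6 were among the 7 libraries nearer the other label. The part of the clock genes in the profiles of *Cyp7a1* and *Abcb11* was not tested.

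As a description, the genes outside the members most like *Cyp7a1* over the 24 group means of log2 CPM were *Akap17b* (Pearson r = 0.76), *Invs* (0.76), *Fem1a* (0.76), *Usp50* (0.75), and *Zcchc17* (0.74). Among the members themselves, *Cyp7a1* had correlations from −0.30 (*Nr0b2*) to 0.56 (*Baat*), whereas *Baat* and *Slc10a1* reached 0.95. All these values share the 2 levels of diet, which separate the group means of most members.

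Both sexes were present in each group, which allowed the members to be compared by sex. Over all 96 mice, *Cyp7b1* was 6.22-fold higher in males (log2 difference 2.64 ± 0.21, adjusted p = 1.3e-18) and *Slc10a1* was lower in males (−0.41 ± 0.07, adjusted p = 6.01e-06). That made 2 of 10 members, against 17.2% of all genes. On NC, *Cyp7b1* ranged from 14.6 to 53.7 CPM (median 19.9) in 12 Hep-Bmal1WT females and from 25.8 to 639 CPM (median 266) in 12 males, and 11 of 12 males lay above all females. In Hep-Bmal1KO on NC it ranged from 22.1 to 50.6 CPM (median 33.1) in females and from 161 to 1477 CPM (median 808) in males, with 12 of 12 males above all females. On cdHFD the sexes came closer together. Males averaged 29.5 ± 13.3 CPM (n = 13) and females 12.0 ± 3.17 CPM (n = 11) in Hep-Bmal1WT, and 21.5 ± 12.6 and 7.81 ± 1.75 CPM (n = 12 each) in Hep-Bmal1KO.

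The fall of *Cyp7b1* with cdHFD was larger in males, by 2.61 ± 0.25 on the log2 scale (diet by sex, adjusted p = 9.14e-14). In males alone it fell by 3.29 ± 0.22 in Hep-Bmal1WT and by 5.05 ± 0.20 in Hep-Bmal1KO, and in females alone by 1.03 ± 0.16 and 2.12 ± 0.12. The genotype difference was also read within each sex. On NC *Cyp7b1* was higher in Hep-Bmal1KO males (1.23 ± 0.20, adjusted p = 8.28e-05) and had a log2 difference of 0.51 ± 0.16 in females (adjusted p = 0.0814). On cdHFD it was −0.50 ± 0.15 in males (adjusted p = 0.0518) and lower in Hep-Bmal1KO females (−0.59 ± 0.14, adjusted p = 0.0101). The term of genotype with diet passed in both sexes, at −1.73 ± 0.28 in males (adjusted p = 9.46e-05) and −1.10 ± 0.23 in females (adjusted p = 0.00986).

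**Figure D5:**
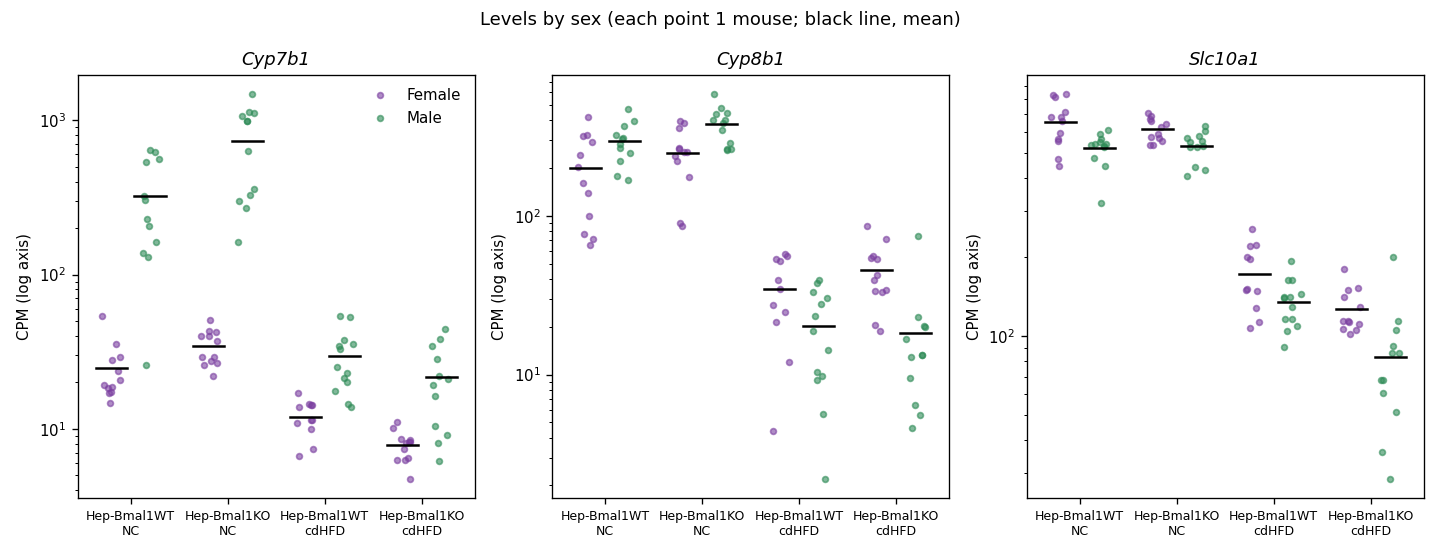
CPM on a log axis (y axis) of *Cyp7b1*, *Cyp8b1*, and *Slc10a1* in females (purple) and males (green) of the 4 combinations of genotype and diet (x axis), with 1 point per mouse and a black line for the mean of 11 to 13 mice. The *Cyp7b1* means on NC are 323 CPM in males and 24.6 CPM in females of Hep-Bmal1WT, and on cdHFD 29.5 and 12.0 CPM.

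*Cyp8b1* took opposite sides by diet. On NC its means were 295 ± 88.1 CPM in males and 201 ± 119 CPM in females of Hep-Bmal1WT and 380.4 ± 101 and 249 ± 100.3 CPM in Hep-Bmal1KO, whereas on cdHFD they were 20.2 ± 12.7 and 34.8 ± 18.5 CPM, and 18.35 ± 18.7 and 45.4 ± 19.97 CPM. The fall with cdHFD was larger in males by 1.76 ± 0.26 on the log2 scale (adjusted p = 3.63e-07). *Nr5a2* went the other way, with a fall smaller in males by 0.33 ± 0.09 (adjusted p = 0.0144). In Hep-Bmal1WT its mean was 35.1 ± 7.58 CPM in females and 28.3 ± 5.74 CPM in males on NC, and 24.6 ± 5.71 and 26.3 ± 4.63 CPM on cdHFD. That made 3 of 10 members with a diet-by-sex term, against 7.91% of all genes. *Slc10a1* had a lower mean in males in all 4 combinations, for example 134.7 ± 27.9 against 172 ± 49.2 CPM in Hep-Bmal1WT and 83.01 ± 45.2 against 127 ± 24.2 CPM in Hep-Bmal1KO on cdHFD.

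The term of genotype with sex was called for 0 of 10 members by edgeR, 0 by DESeq2, and 0.0386% of all genes, and 2 of 10 members had an unadjusted p under 0.05. *Baat* had the smallest p (log2 difference −0.33 ± 0.09, unadjusted p = 0.000332, adjusted p = 0.145), followed by *Nr0b2* (−0.64 ± 0.26, unadjusted p = 0.0155, adjusted p = 0.438). On cdHFD in males alone, *Nr0b2* was lower in Hep-Bmal1KO by 1.13 ± 0.20 on the log2 scale (adjusted p = 0.00176) and *Baat* by 0.47 ± 0.09 (adjusted p = 0.00397). In females alone the values were −0.32 ± 0.20 (adjusted p = 0.46) and −0.04 ± 0.07 (adjusted p = 0.85). With no filter on counts, the term of genotype with sex was called for some members, as counted in the last section. Of the other genes of bile acid metabolism, 6 of 40 were higher and 12 lower in males. Over all genes tested, 8.24% were higher and 8.99% lower in males.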

How the data were processed

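BRB-seq libraries of 96 livers were sequenced and counted per gene by the authors, who deposited 1 table of raw read counts, with no normalization. STAR, HTSeq, featureCounts, and DESeq2 and the build mm10 are named in the submitters' processing notes, and their versions and any collapse of molecular identifiers are not given in the sources used here. Rows that name no gene, reads not aligned (19.4% of all reads) and reads on no gene (8.06%), were left out.

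Genes reaching 100 counts in total were kept. CPM were computed with TMM factors, and differences were tested by edgeR 4.0.16 (R 4.3.3) quasi-likelihood fits in which ZT entered as a factor, adjusted over 15548 genes by Benjamini-Hochberg. Genotype and diet comparisons used the 48 libraries concerned, and the interaction and sex tests used 96. Rhythms of 24 hours were tested on DESeq2 1.42.0 variance-stabilized counts by a cosine F test and JTK_CYCLE and on counts by edgeR, with p under 0.01 in any of them counted as rhythmic. Amplitude and phase were compared by a least squares CircaCompare model, at an unadjusted p under 0.05. The fits were tested on simulated data.

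The members and lists were chosen with earlier results of these data known. The genes named are the 10 members, the other pathway genes with the 3 smallest p among those called in each genotype or diet comparison, clock genes, cell markers, and the 5 genes most like *Cyp7a1*. *Vdr* and *Ch25h* are named for their low levels. Alternatives were DESeq2 and its size factors, 2 other filters, sex as a covariate, each sex alone, single rhythm tests, and leaving out each replicate number or the 7 libraries. Gene positions are from RefSeq GRCm38.p6, matched by symbol for 10 of 10 members. Labels name separate mice, and the p-values weigh each difference against the spread between mice. The main genotype and diet fits held no term for sex, so their spread between mice includes that between the sexes.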

Additional observations from a re-analysis of the deposited data

Results flagged for a closer look

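In 14 of 240 groups of 4 mice, 1 mouse lay apart from the other 3 by Dixon's criterion, where chance gives about 12 (1 in 20), and 5 of the 14 were among the 7 libraries nearer the other genotype label. Those 5 were *Baat* at 330.4 CPM and *Cyp7b1* at 205 CPM in a Hep-Bmal1WT mouse on NC at ZT6, *Cyp7a1* at 71.3 CPM in Hep-Bmal1WT on cdHFD at ZT14, *Cyp8b1* at 90.1 CPM in Hep-Bmal1KO on NC at ZT6, and *Nr1h4* at 122 CPM in Hep-Bmal1KO on NC at ZT10. In Hep-Bmal1WT on NC, the others were *Baat* at 183 CPM at ZT22, *Cyp7a1* at 179 CPM at ZT10, and *Nr1h4* at 82.9 CPM at ZT6. In Hep-Bmal1WT on cdHFD at ZT22 they were *Baat* at 172 CPM and *Nr1h4* at 45.4 CPM. In Hep-Bmal1KO they were *Abcb11* at 417 CPM on NC at ZT22 and, on cdHFD, *Abcb11* at 182 CPM at ZT18, *Baat* at 117 CPM at ZT22, and *Cyp7b1* at 6.18 CPM at ZT10.

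The diet difference of *Abcb11* differed between genotypes by −0.36 on the log2 scale. The diet difference differed between males and females by −2.61 for *Cyp7b1*, −1.76 for *Cyp8b1*, and 0.33 for *Nr5a2*.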

How the results depend on the processing

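No paired analysis was possible because the labels number mice, not replicates across groups. The number in the library names cannot be told apart from genotype and diet, and the column order and mouse numbers cannot be told apart from ZT. Low counts, down to 17 reads for *Cyp8b1* and 29 for *Cyp7b1*, limit the precision of single libraries. For the counts of members below, the causes of changes were not tested beyond fewer genes or mice entering a fit. The share of all genes called under each setting is not given beside them. A change in a count is therefore not read as particular to the members.

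For genotype on NC, 1 member was called with no filter, 5 with sex as a covariate, 1 in females, 4 without the 7 libraries, and 0 to 2 without a replicate number. For genotype on cdHFD, 2 were called in females and 1 to 3 without a replicate number. For genotype by diet, 3 were called by DESeq2, 3 with sex as a covariate, 2 in males, 4 without the 7 libraries, and 0 to 1 without a replicate number. With no filter, 5 were called for diet by sex, 4 for genotype by sex, 4 for sex, and 1 for the rhythm terms of genotype on cdHFD. Without a replicate number, diet by sex gave 2 to 3.

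In Hep-Bmal1KO on cdHFD, 1 member was rhythmic by the cosine test alone, 0 by JTK_CYCLE alone, 0 at an adjusted p under 0.05, and 0 to 3 without a replicate number, and 3 were rhythmic in Hep-Bmal1KO males on NC. Amplitude differed for 2 members on cdHFD without the 7 libraries, for 0 at an adjusted p, and for 0 to 1 without a replicate number. On NC it differed for 0 in males, 0 in females, 0 at an adjusted p, and 0 to 1 without a replicate number. The phase differed for 1 on NC in males. The rhythm terms of diet gave 0 in males, 0 in females, and 0 to 0 without a replicate number in Hep-Bmal1KO, and 1 in males, 1 without the 7 libraries, and 1 to 2 without a replicate number in Hep-Bmal1WT.

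The sign turned for *Baat* with genotype on NC, at 0.00 in the report, to −0.0039 with DESeq2 size factors, −0.0066 with DESeq2, −0.0086 with at least 10 counts in 24 libraries, and −0.10 in males (−0.077 to 0.085 without a replicate number). It also turned for *Cyp7a1* with genotype on NC in females (−0.024), for its amplitude on cdHFD in males (0.12), for *Cyp8b1* with genotype on cdHFD in males (−0.20), and for *Slc10a1* with genotype on NC in males (0.026). *Nr5a2* with genotype on NC lay between −0.13 and 0.0021 without a replicate number. Of the log2 differences past the threshold, 316 values kept it and 41 did not under the alternatives.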
